A study of Mus musculus with 63 samples.

Results

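The imprinted genes of the mouse were followed through R1 embryonic stem cells and the neural progenitor cells (NPCs) made from them, in lines with and without the promoter of the Meteor long non-coding RNA. The set held 44 known imprinted genes of 19 loci, listed by name, and all 44 had a row among the 24990 rows of each expression table. From general knowledge, 14 of them are expressed mainly from the maternal chromosome, 25 mainly from the paternal one, and 5 in a way that depends on tissue or isoform. A gene is imprinted when the copies from mother and father carry different DNA methylation at a control region laid down in the germ line, so that only 1 parental copy is used. Many imprinted genes set growth, placental function or neuronal traits, and in cultured embryonic stem cells their methylation is known to be lost or gained in some lines and media. The tables give the total level of each transcript and hold no allele information, so a parental origin named below is background.

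The samples were 63 RNA-seq libraries in 21 groups of 3, all from the R1 line. The pInv line carries the Meteor promoter in inverted orientation, pKO1 and pKO2 are lines whose Meteor promoter was knocked out, and WT1 and WT2 are unedited lines. These 5 lines were sampled in 2i medium (PD0325901 at 1 µM, CHIR99021 at 3 µM, LIF at 10 ng/ml), in medium with 15% serum and LIF at 10 ng/ml, and as NPCs collected after 4 days of differentiation from serum-grown cells moved off feeders. In a separate series KD1 and KD2 are Meteor knockdowns by CRISPR with dCas9, set against an empty-vector control (Ctrl), in serum and as NPCs. Both stem cell media were used on a layer of mouse embryonic fibroblasts, whose RNA can enter a stem cell library. Whether each line is a clone is not given, lines differ in their history as well as their edit, and pInv and Ctrl are 1 line each. The labels do not state whether replicate libraries came from different cultures, so p-values measure the spread between libraries, which may be technical, and not the spread between lines.

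Libraries held 7566629 to 18553323 counts, with a median of 11882018. Levels within a gene are given as CPM, its count scaled to the library total, and levels between genes as TPM, which is also scaled to length. The readout of the edited locus was Platr11, a non-coding RNA annotated beside Eomes, which the sources used here do not equate with Meteor. It had at most 0.367 CPM in pKO and pInv libraries against at least 4.56 CPM in WT libraries, and at most 4.10 CPM in KD libraries against at least 8.31 CPM in Ctrl libraries. The levels of 20 fibroblast markers, added up and called the feeder sum below, came to 852 to 1740 CPM in WT libraries in 2i, 3020 to 6000 in serum and 224 to 775 in NPCs. How much of this sum is RNA of feeder cells and how much the cells' own was not tested. Summed naive pluripotency markers had medians of 4650, 1660 and 302 CPM in the same 3 WT states, and summed neural progenitor markers 47.0, 127 and 358 CPM. Rtl1 and Kcnq1 stayed below 1 CPM in all 21 groups and were tested nowhere, 38 members were tested in every comparison, and 42 reached 1 CPM in at least 1 group.

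Several members share a table row or a stretch of genome. The rows of H19, Meg3, Mirg, Rtl1 and Snrpn are merged with microRNA genes or with Snurf. The strand setting of the counting is not given in the sources used here, so reads of antisense or nested pairs cannot be told apart: Airn and Igf2r, Kcnq1ot1 and Kcnq1, Nespas and Gnas, Zrsr1 and Commd1, Mcts2 and H13, Peg13 within Trappc9, and Nap1l5 within Herc3.

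Promoter sequence is shown for 3 members that carry results below, each in a window that holds the hexamer described next. Meg3 is a long non-coding RNA of the Dlk1-Dio3 locus, Mest encodes a hydrolase-like protein, and Nap1l5 encodes a nucleosome assembly protein relative. Capitals mark the hexamer TGCCGC or its reverse complement GCGGCA, the core of the sites that the zinc finger protein ZFP57 is known to bind in methylated form at imprinting control regions. Windows run from 250 bases before to 50 bases after the annotated start (RefSeq, build GRCm38.p6, whereas the expression tables use mm9), and are printed 5′ to 3′ on the strand of the gene.
Meg3, chr12:109540746-109541045, plus strand: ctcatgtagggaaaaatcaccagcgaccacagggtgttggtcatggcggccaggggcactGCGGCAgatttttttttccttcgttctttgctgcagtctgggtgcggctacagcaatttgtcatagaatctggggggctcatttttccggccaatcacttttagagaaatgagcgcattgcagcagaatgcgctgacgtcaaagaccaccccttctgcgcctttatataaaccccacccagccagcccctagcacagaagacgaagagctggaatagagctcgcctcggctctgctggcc
Mest, chr6:30737800-30738099, plus strand: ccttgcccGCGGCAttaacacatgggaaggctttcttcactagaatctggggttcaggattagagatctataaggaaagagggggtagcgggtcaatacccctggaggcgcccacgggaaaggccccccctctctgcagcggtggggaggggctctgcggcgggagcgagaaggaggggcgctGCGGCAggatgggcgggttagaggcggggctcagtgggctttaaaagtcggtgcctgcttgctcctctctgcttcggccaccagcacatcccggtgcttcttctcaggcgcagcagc
Nap1l5, chr6:58907077-58907376, minus strand: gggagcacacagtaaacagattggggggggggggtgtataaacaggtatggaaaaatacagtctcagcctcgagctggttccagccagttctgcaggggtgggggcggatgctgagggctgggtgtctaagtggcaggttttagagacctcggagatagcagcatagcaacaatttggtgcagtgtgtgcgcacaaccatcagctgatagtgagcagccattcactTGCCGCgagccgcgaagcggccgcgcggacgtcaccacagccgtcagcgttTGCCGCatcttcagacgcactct
Of the 44 members 35 had such a window and 9 had none in the table. The hexamer, searched on both strands, was in 13 of 54 member windows (24.1%) and in 3813 of all 32851 windows (11.6%). At least 1 of its windows held it for 12 members (34.3% of those with a window), against 13.1% of all genes. Member windows held a median of 13 CpG, against 7 over all windows. Meg3 and Mest also have a window without the hexamer. Mirg, Rian, Magel2, Peg3 and Slc38a4, which carry results below too, have no window with it. A match says only that these letters are present.

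Mature microRNAs are shown for 3 merged rows, because the values of H19, Meg3 and Mirg below are those of the host row and not of the microRNAs, which polyadenylated RNA libraries do not count. Capitals mark the seed, bases 2 to 8, and the sequences are from RefSeq (GRCm38.p6).
miR-675-5p, in the H19 row: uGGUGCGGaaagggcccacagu
miR-770-5p, in the Meg3 row: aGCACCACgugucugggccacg
miR-410-3p, in the Mirg row: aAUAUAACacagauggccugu
miR-412-3p, in the Mirg row: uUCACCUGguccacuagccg
None of these 4 seeds is shared with another of them.

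In WT cells the leading members changed with culture state. By mean TPM over 6 libraries, Gnas, which encodes the stimulatory G protein alpha subunit, led in 2i at 310.0 ± 35.3 (SD), ahead of Mest at 185 ± 98.9, and it also led in serum at 565 ± 72.1. In serum Peg10, a retrotransposon-derived gene needed for the placenta, stood next at 441 ± 200.2. In NPCs Mest led at 1155 ± 277, ahead of Meg3 at 831 ± 292 and Gnas at 729 ± 41.3. The ranges of Gnas and Mest overlapped in 2i and those of Gnas and Peg10 in serum, as did those of Mest and Meg3, and of Meg3 and Gnas, in NPCs. At the other end Rtl1, Asb4, Kcnq1 and Calcr averaged below 0.1 TPM in 2i. The heat map of group means gives all members.

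**Figure D1:**
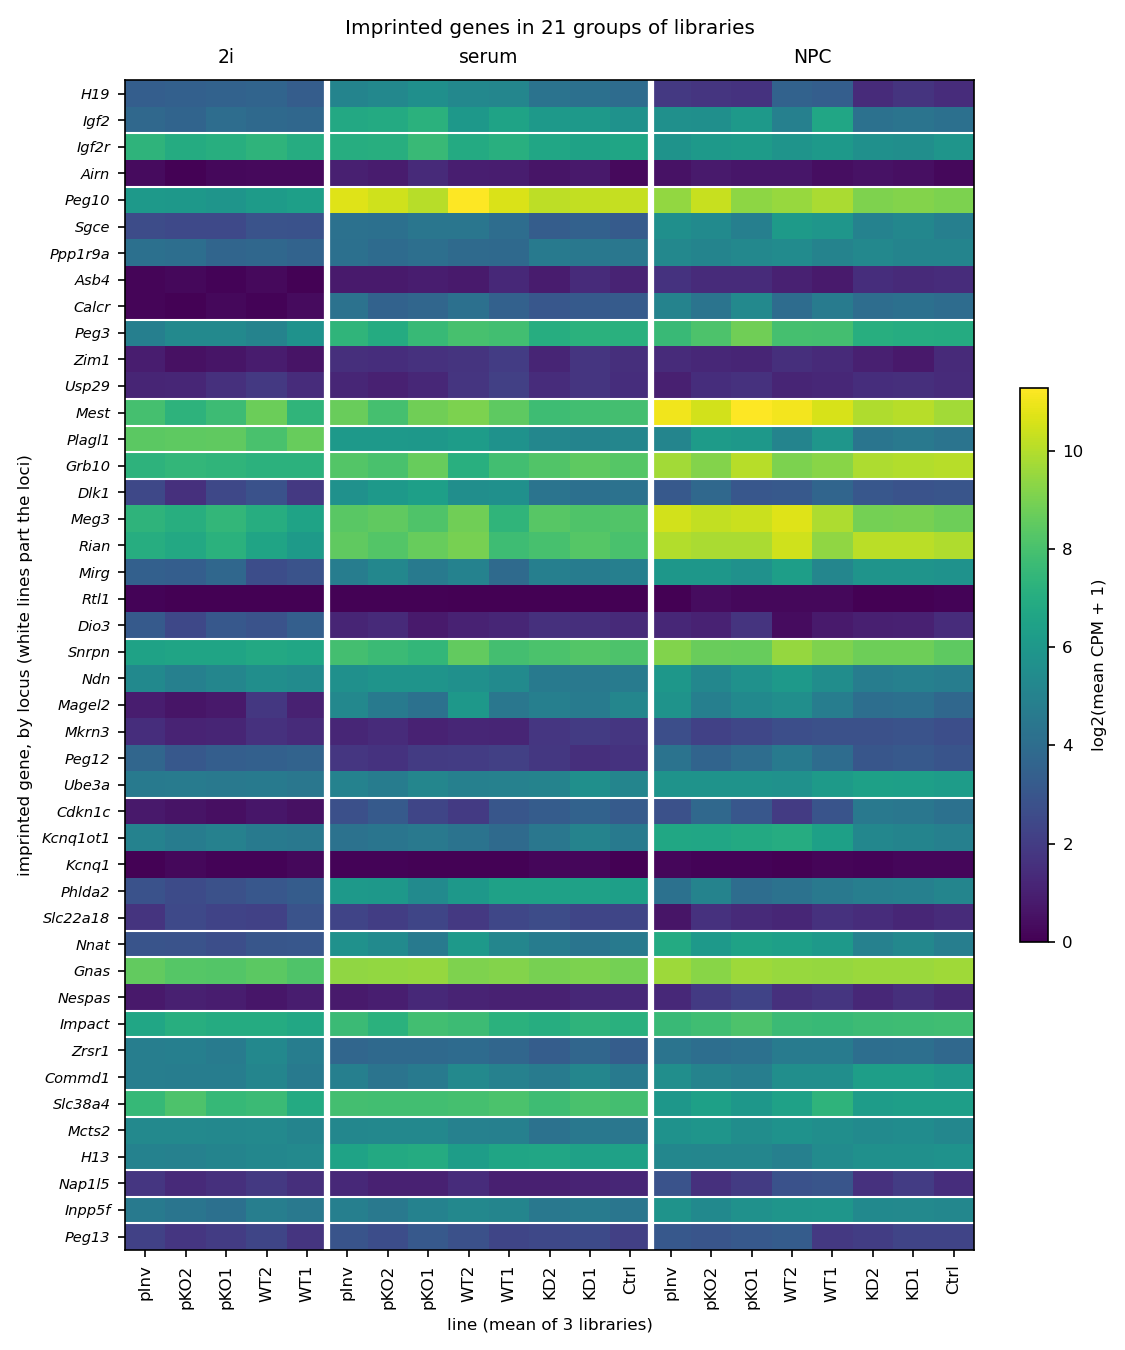
Heat map of log2(mean CPM + 1) for the 44 imprinted genes (rows, by locus) in 21 groups (columns, mean of 3 libraries each, by culture state). Peg10, Magel2 and Calcr are darker in all 2i columns than in the serum columns, and Mest and Meg3 are brightest in NPC columns of the genotype lines.

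Between serum-grown and 2i-grown WT cells more imprinted genes of this set rose than fell. Of 42 tested, 24 rose and 6 fell (71.4% called), against 59.0% of 15145 genes called (29.5% higher, 29.5% lower) in the same test (edgeR quasi-likelihood test with Benjamini-Hochberg adjusted p under 0.05). The median log2 fold change was 0.68 over the members and 0.00 over all genes. A further list of imprinted genes outside the set, described below, had 10 rises and 11 falls of 26 tested in the same comparison. In bulk RNA, fewer cells of a type and less RNA per cell cannot be told apart, and feeder markers moved with these results: 17 of 20 rose, with a median of 1.68. With the feeder score, the mean log2 CPM of these markers in each library, as a covariate, 19 members rose and 3 fell. Because these markers differed between the media, that fit cannot tell feeder RNA from an effect of the medium. Of the members background knowledge calls maternal 10 of 13 rose and none fell, and of the paternal ones 12 of 24 rose and 6 fell.

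In the Peg10 locus, Peg10 ranged from 1178 to 3728 CPM with a median of 1749 in WT serum libraries, against 66.1 to 92.3 with a median of 75.6 in 2i. The ranges lay far apart, and the log2 fold change was 4.65 ± 0.20, adjusted p = 2.78e-12. Its neighbour Sgce, encoding epsilon-sarcoglycan, rose by 1.49 ± 0.17, Calcr, the calcitonin receptor, by 6.35 ± 0.48, and Asb4, a ubiquitin ligase adaptor, by 3.20 ± 0.64. Ppp1r9a, encoding neurabin, was not past the threshold (0.20 ± 0.14).

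In the Prader-Willi and Angelman region Magel2, a MAGE family gene, had 47.1, 63.2 and 77.3 CPM in WT2 and 16.3, 22.6 and 24.3 in WT1 in serum, against 1.61, 3.28 and 2.72 in WT2 and 0.895, 1.33 and 1.01 in WT1 in 2i. All serum libraries lay above all 2i libraries (log2 fold change 4.40 ± 0.23, adjusted p = 3.92e-11). Snrpn, encoding a spliceosomal protein, rose by 1.46 ± 0.13. Ndn, another MAGE family gene of the region, did not pass (0.01 ± 0.17), and Peg12 fell by 1.76 ± 0.31.

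At the Dlk1-Dio3 locus 4 of 5 tested members rose. Dlk1, a membrane protein related to Notch ligands and paternally expressed, had 29.0 to 67.7 (median 49.9) CPM in serum against 1.34 to 7.38 (median 4.17) in 2i. The ranges did not overlap, and it rose by 3.54 ± 0.24, while the maternally expressed RNAs Rian, a snoRNA host, Mirg, a microRNA host, and Meg3 rose by 1.98 ± 0.16 (Rian), 1.82 ± 0.17 (Mirg) and 1.31 ± 0.11 (Meg3). Dio3, a thyroid hormone deiodinase at the far end, fell by 2.73 ± 0.34. Genes of both parental origins thus rose together, and 1 went the other way.

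Other rises included Peg3, a zinc finger gene (2.54 ± 0.19), Phlda2, a brake on placental growth (3.19 ± 0.20), Cdkn1c, a cell cycle inhibitor (3.06 ± 0.31), and Nnat, encoding a proteolipid (2.71 ± 0.34). The falls were led by Plagl1, a zinc finger regulator of imprinted genes, at 52.0 to 84.9 CPM in serum against 227 to 426 in 2i (−2.40 ± 0.14, adjusted p = 8.45e-11). Zrsr1, a splicing factor retrogene, fell by 1.26 ± 0.14.

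Igf2 and H19 moved alongside the feeder sum. Igf2, a fetal growth factor, had 36.4 to 124.5 CPM in WT serum libraries against 9.53 to 15.8 in 2i, and H19, its maternally expressed non-coding neighbour, 25.4 to 44.8 CPM in serum against 4.20 to 16.0 in 2i. The log2 fold change of Igf2 was 2.54 ± 0.25 and that of H19 1.80 ± 0.27. With the feeder score as a covariate that of Igf2 was 0.94 ± 0.40 and that of H19 0.22 ± 0.42, and neither was called. WT feeder sums did not overlap between serum (3020 to 6000 CPM) and 2i (852 to 1740 CPM). That fit therefore cannot tell feeder RNA from an effect of the medium. The calls of Airn, Impact, Mest, Peg12, Nap1l5 and Kcnq1ot1 ended in that fit too, in which 3009 of 15145 genes were called. Peg10 (5.08 ± 0.34), Magel2 (4.55 ± 0.44), Peg3 (3.28 ± 0.33), Calcr (4.47 ± 0.68) and Dlk1 (2.13 ± 0.34) were among those still called. Leaving out 1 library also ended the call of Nap1l5 in 9 of 12 fits (−0.96 to −0.64). Within 2i, H19 was lower in libraries numbered 1, at 3.18 to 6.31 CPM over the 5 lines, than in those numbered 2 or 3, at 10.5 to 16.0 CPM, and the feeder sum was 542 to 949 CPM against 1250 to 2130 CPM.

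**Figure D2:**
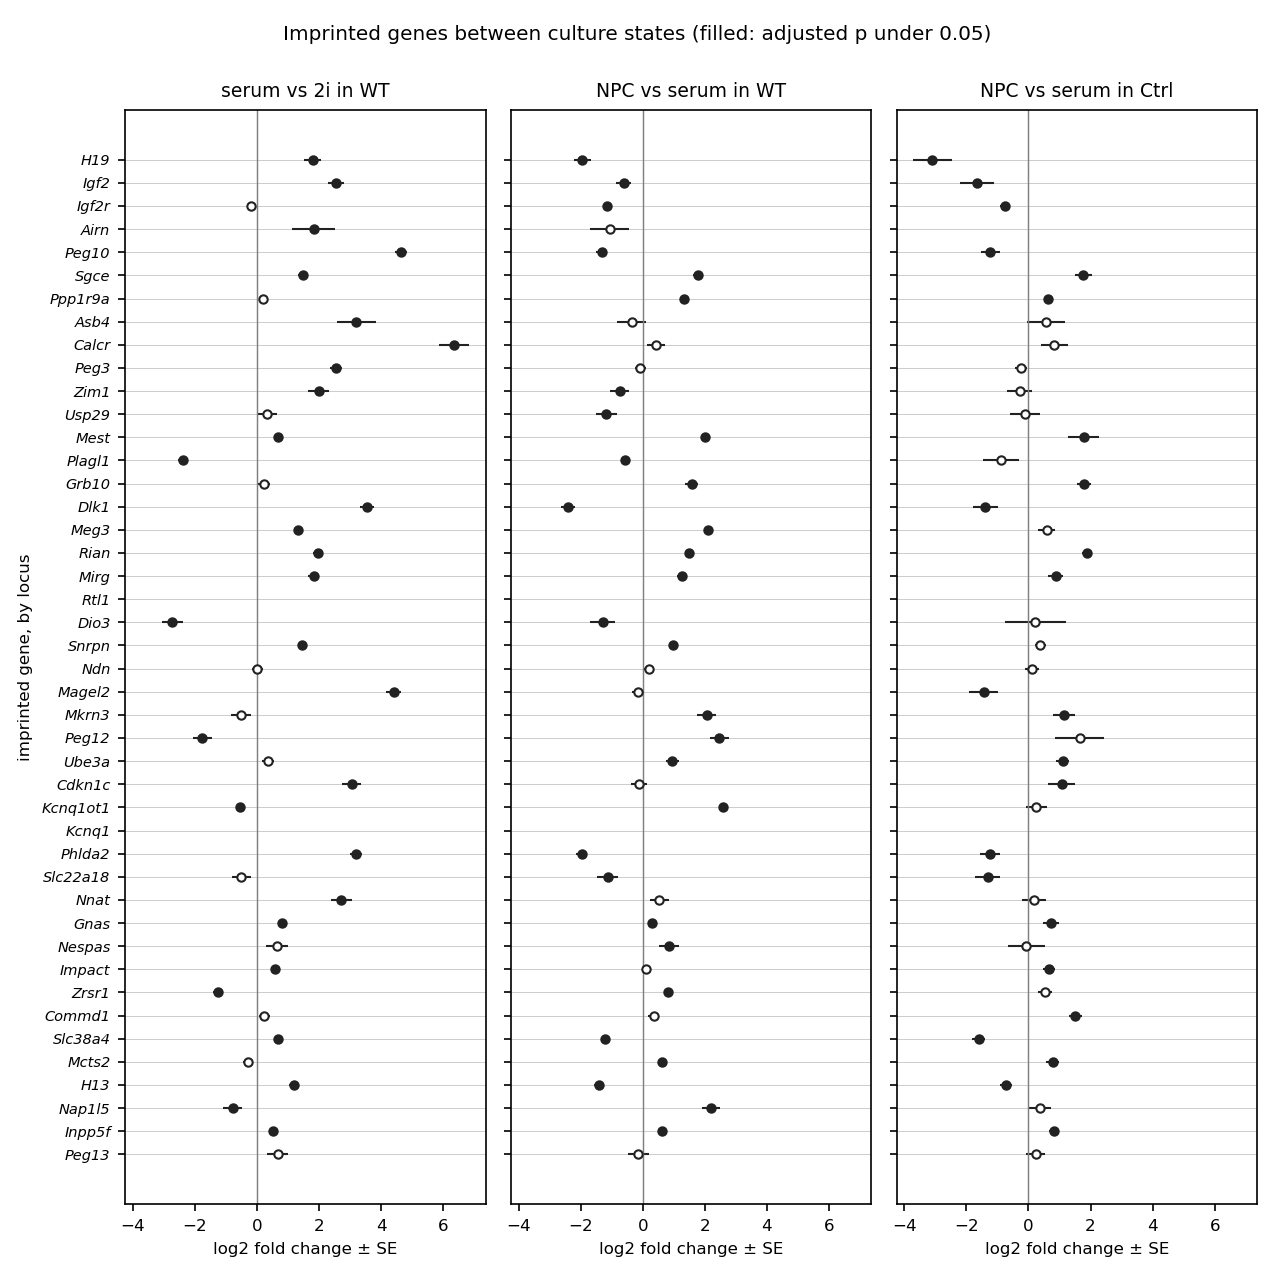
Log2 fold change with SE (x axes, same scale) of each imprinted gene (rows, by locus) for serum against 2i in WT, NPC against serum in WT, and NPC against serum in Ctrl; filled points have an adjusted p under 0.05. Peg10, Magel2, Calcr and Dlk1 lie far to the right in the first panel, and H19, Dlk1 and Phlda2 to the left in the others.

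NPCs differed from serum cells in both directions. In WT, 18 of 42 members rose and 13 fell (73.8% called), against 66.3% of 15145 genes called (32.0% higher, 34.3% lower), with a member median of 0.24 and a median of −0.02 over all genes. Meg3 had 1837, 1901 and 1310.0 CPM in WT2 and 993, 1047 and 805 in WT1 as NPCs, against 457, 378 and 541 in WT2 and 158, 169 and 172 in WT1 in serum, with no overlap. Its rise was 2.10 ± 0.11, adjusted p = 4.02e-11. Kcnq1ot1, the silencing RNA of the Kcnq1 domain, had 81.2 to 148 (median 90.4) CPM in NPCs against 12.2 to 21.1 (median 16.5) in serum. Its ranges lay apart too, and it rose by 2.58 ± 0.14, Mest by 2.00 ± 0.12, Sgce by 1.77 ± 0.16, Rian by 1.50 ± 0.15 and Mirg by 1.26 ± 0.16. Grb10, an adaptor that dampens insulin and IGF signalling, rose by 1.57 ± 0.19 and Ppp1r9a by 1.35 ± 0.13.

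Of the 13 members that fell in WT NPCs, Dlk1 fell by 2.40 ± 0.22, Phlda2 by 1.96 ± 0.18, Peg10 by 1.33 ± 0.17, H19 by 1.94 ± 0.27, and Igf2r, the receptor that clears Igf2, by 1.14 ± 0.10. Slc38a4, an amino acid transporter, fell by 1.22 ± 0.14 and H13, a signal peptide peptidase, by 1.40 ± 0.17. Plagl1 fell by 0.58 ± 0.13, but with WT1 alone its value was 0.11 (adjusted p = 0.619). In the same test 18 of 20 feeder markers fell, with a median of −4.04, and the NPC cultures were made off feeders. Their part in the falls of H19, Igf2 and Dlk1 between serum and NPCs was not tested. Dlk1 and Meg3, neighbours of opposite parental origin, both rose from 2i to serum and moved apart in NPCs. The mean log2 ratio of Meg3 over Dlk1, in CPM and so to be read only across states, was 4.38 ± 0.47, 3.31 ± 0.43 and 7.71 ± 0.10 in WT2 in 2i, serum and NPCs, and 5.27 ± 0.75, 1.81 ± 0.69 and 6.35 ± 0.19 in WT1 (SD, n = 3).

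The Ctrl line, which shares no library with WT, gave a second reading of the same step. Of 41 members 14 rose and 10 fell (58.5% called), against 54.4% of 14374 genes called (27.2% higher, 27.2% lower). Of the 41 members tested in both, 31 were called in WT and 24 in Ctrl, and 20 were called in both, all in the same direction. These were 64.5% of the WT calls and 83.3% of the Ctrl calls. Over all 14180 genes tested in both, the 6050 genes called in both were 63.8% of the WT calls and 77.7% of the Ctrl calls, and 95.1% of them had the same direction, so the overlap at the members was near that of all genes. Rian (1.88 ± 0.15), Grb10 (1.80 ± 0.23) and Sgce (1.77 ± 0.27) rose, and H19 (−3.10 ± 0.62), Slc38a4 (−1.60 ± 0.21) and Igf2r (−0.77 ± 0.13) fell. Meg3 had 557, 309 and 449 CPM in Ctrl NPCs against 371, 217 and 289 in Ctrl serum cells, with overlapping ranges (0.59 ± 0.27, adjusted p = 0.0789). Magel2 fell in Ctrl (−1.44 ± 0.47) and had −0.15 ± 0.18 in WT, a difference that was not tested. Mest in Ctrl NPCs had 403, 1388 and 683 CPM in replicates 1 to 3, against 203, 254 and 263 in serum, and replicate 2 was the highest in KD1 and KD2 NPCs as well.

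The unedited lines WT2 and WT1 differed from each other at imprinted genes, and this spread stands behind each genotype comparison. In 2i, 6 of 38 members were higher in WT2 and 2 lower (21.1%), close to the 18% of 13938 genes called (9.21% higher, 8.77% lower). In serum 3 of 42 were higher and none lower (7.14%), against 0.528% of 14197 genes (0.134% higher, 0.394% lower). In NPCs 1 of 42 was lower and none higher (2.38%), against 0.103% of 14511 genes (0.00689% higher, 0.0965% lower). DESeq2 called 9 members in 2i, 5 in serum and 5 in NPCs, beside 2820, 245 and 163 of all genes. Naive pluripotency markers differed between the lines as well, with 3 of 10 higher and 4 lower in WT2 in 2i and 2 lower in serum. They summed to 4130 to 4350 CPM in WT2 against 4940 to 5390 in WT1 in 2i, and to 1320 to 1560 in WT2 against 1760 to 1990 in WT1 in serum, and their part in the results was not tested.

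The Dlk1-Dio3 RNAs made up part of that difference. In serum Meg3 had 457, 378 and 541 CPM in WT2 against 158, 169 and 172 in WT1, with no overlap (1.50 ± 0.20, adjusted p = 0.003). Rian had 435, 547 and 493 CPM in WT2 against 212, 215 and 225 in WT1, again apart (1.22 ± 0.15, adjusted p = 0.00136). Mirg had 32.0, 25.3 and 36.6 CPM in WT2 against 13.4, 12.3 and 15.8 in WT1, also apart, though the difference did not pass the test (1.22 ± 0.28, adjusted p = 0.084).

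In NPCs the same 3 RNAs were higher in every WT2 library than in every WT1 library, without passing the test. The share of all genes that separate in this way was not counted, so this cannot be set against it. Meg3 had 1837, 1901 and 1310.0 CPM in WT2 against 993, 1047 and 805 in WT1 (0.80 ± 0.22, adjusted p = 0.199), and Rian 1204, 1595 and 1457 in WT2 against 435, 893 and 711 in WT1 (1.03 ± 0.21, adjusted p = 0.0768). In 2i Meg3 had 126, 107 and 149 CPM in WT2 against 90.0, 89.9 and 101 in WT1 (0.43 ± 0.13, adjusted p = 0.0302), while Mirg did not pass (−0.27 ± 0.18). The call of Meg3 in 2i ended without WT1 replicate 1, WT1 replicate 2 or WT2 replicate 3 (0.33 to 0.56 over the 6 fits that leave out 1 library).

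**Figure D3:**
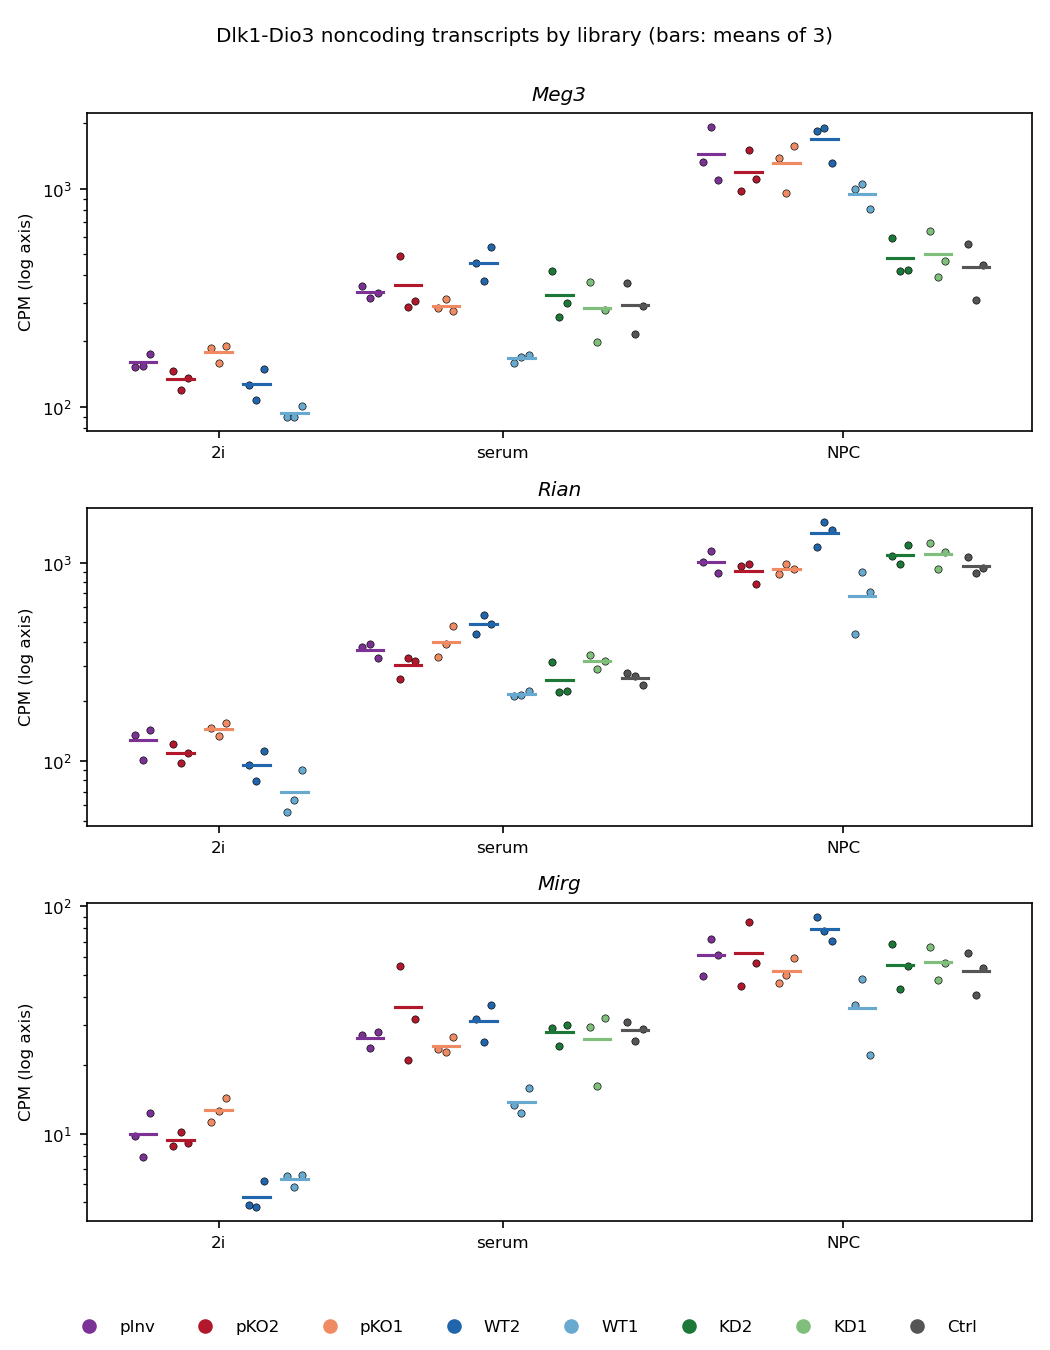
CPM (log axes) of Meg3, Rian and Mirg in every library, by state and line; bars are means of 3. In serum all WT2 points lie above all WT1 points for each of the 3 RNAs, and the pInv, pKO2 and pKO1 points of Rian lie between them except where pKO1 reaches WT2.

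Further members set the WT lines apart. In 2i Mest had 325, 420.3 and 522 CPM in WT2 against 129.9, 172 and 190.4 in WT1, with no overlap (1.35 ± 0.19, adjusted p = 0.000285). Peg3 had 36.7, 32.6 and 26.0 in WT2 against 49.8, 56.2 and 49.8 in WT1 (−0.73 ± 0.15, adjusted p = 0.00349), and Plagl1 283, 227 and 275 in WT2 against 426, 348 and 417 in WT1 (−0.62 ± 0.12, adjusted p = 0.00326). Both were lower in every WT2 library.

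Slc38a4 (0.76 ± 0.17), Zrsr1 (0.47 ± 0.11), Igf2r (0.34 ± 0.09) and Gnas (0.27 ± 0.09) were the other members higher in WT2 in 2i. The call of Igf2r ended without WT2 replicate 2 or WT1 replicate 3 (0.29 to 0.44 over the 6 fits), and that of Gnas without replicate 2 or replicate 3 of either line (0.22 to 0.34). In 2i the replicate numbers pair the libraries, and with a replicate block 14 members passed, 11 higher and 3 lower in WT2, where 29.7% of all genes passed. Dlk1 (1.25 ± 0.23), Magel2 (1.20 ± 0.32), Rian, Commd1 and Peg13 were added as higher and Slc22a18 as lower.

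Igf2 was the 1 member past the threshold between WT lines in NPCs. It had 25.9, 26.0 and 34.3 CPM in WT2 against 63.9, 142 and 97.6 in WT1, with no overlap (−1.85 ± 0.26, adjusted p = 0.00691). The feeder sum ran the same way, at 224 to 342 CPM in WT2 against 492 to 775 CPM in WT1, and its part in the result was not tested. The call ended without WT2 replicate 1 or WT2 replicate 2 (−2.10 to −1.51 over the 6 fits). Magel2 in serum had 47.1, 63.2 and 77.3 CPM in WT2 against 16.3, 22.6 and 24.3 in WT1 (1.61 ± 0.24, adjusted p = 0.00789), a call that ended without WT1 replicate 1, WT1 replicate 2 or WT2 replicate 2 (1.44 to 1.77).

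Few members passed between the deletion lines. In 2i none of 38 members passed in pKO2 against pKO1, against 0.574% of genes (0.0646% higher, 0.509% lower) by edgeR. Of the members 8 had an unadjusted p under 0.05 (21.1%, against 12% of all genes) and DESeq2 called none. With the replicate block, under which 4.2% of all genes passed, 1 was higher (Slc38a4, 0.55 ± 0.09) and 3 lower in pKO2 (Meg3, −0.42 ± 0.08; Dlk1, −1.23 ± 0.25; Mest, −0.45 ± 0.08). In serum Mest had 198, 256 and 295 CPM in pKO2 against 414, 405 and 535 in pKO1 (−0.82 ± 0.15, adjusted p = 0.0399), the 1 call of 42 members, against 0.197% of genes (0.176% higher, 0.0211% lower). It ended without any of the 3 pKO1 libraries or without pKO2 replicate 1 (−0.95 to −0.67 over the 6 fits). In NPCs Peg10 had 1655, 1107 and 1130.0 CPM in pKO2 against 636, 701 and 621 in pKO1 (1.01 ± 0.20, adjusted p = 0.00979), the 1 call, against 2.93% of genes (2.17% higher, 0.758% lower). It ended without pKO1 replicate 1 or pKO1 replicate 3 (0.82 to 1.12). In the same comparison 8 of 10 naive pluripotency markers were higher in pKO2 (median 2.83), at sums of 457 to 638 CPM in pKO2 against 156 to 280 in pKO1. Of 10 extraembryonic endoderm markers tested 2 were higher (median 1.41), at sums of 106 to 170 CPM in pKO2 against 75.2 to 81.5 in pKO1. Their part in the Peg10 difference was not tested.

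Loss of the Meteor promoter was first compared in 2i, where the deletion lines had more of the maternally expressed Dlk1-Dio3 RNAs than WT. Of 38 members 5 were higher in pKO and 4 lower (23.7%), against 9.06% of 13938 genes called (3.29% higher, 5.77% lower). Mirg had 8.83, 10.2 and 9.09 CPM in pKO2 and 11.2, 12.6 and 14.4 in pKO1, against 4.83, 4.76 and 6.21 in WT2 and 6.53, 5.80 and 6.57 in WT1. Every pKO library lay above every WT library (0.96 ± 0.13, adjusted p = 0.000737). The difference held against WT2 alone, against WT1 alone and for each pKO line alone.

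Meg3 had 146, 119 and 136 CPM in pKO2 and 186, 159 and 191 in pKO1, against 126, 107 and 149 in WT2 and 90.0, 89.9 and 101 in WT1. The pKO range overlapped that of WT2 and not that of WT1 (0.54 ± 0.09, adjusted p = 0.00325). Rian had 122, 97.6 and 109 in pKO2 and 147, 133 and 155 in pKO1, against 95.1, 79.3 and 112 in WT2 and 55.5, 64.1 and 89.9 in WT1, likewise overlapping WT2 (0.67 ± 0.13, adjusted p = 0.0059). With WT2 as the only control, or pKO2 as the only deletion line, neither passed.

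Slc38a4 had 297, 282 and 245 CPM in pKO2 and 204, 182 and 177 in pKO1, against 222, 193 and 202 in WT2 and 147, 102 and 109 in WT1 (0.57 ± 0.12, adjusted p = 0.00943). The pKO1 range overlapped WT2, and the call ended with WT2 as the only control or pKO1 as the only deletion line. Grb10 was higher by a small step, with 147 to 185 CPM and a median of 174 in pKO against 144 to 160 with a median of 149 in WT (0.21 ± 0.06, adjusted p = 0.0473).

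The lower members in 2i were all expressed mainly from the paternal copy, except Inpp5f, a phosphoinositide phosphatase imprinted in some isoforms. Magel2 had 0.497, 0.866 and 0.331 CPM in pKO2 and 0.234, 1.14 and 0.739 in pKO1, against 1.61, 3.28 and 2.72 in WT2 and 0.895, 1.33 and 1.01 in WT1 (−1.33 ± 0.35, adjusted p = 0.0283). All of these levels are low, and pKO overlapped WT1 and not WT2. Mest had 126, 174 and 173 in pKO2 and 181, 209.5 and 250.1 in pKO1, against 325, 420.3 and 522 in WT2 and 129.9, 172 and 190.4 in WT1 (−0.48 ± 0.13, adjusted p = 0.0335). It lay below WT2 and, with WT1 as the only control, its sign turned (log2 fold change 0.19, adjusted p = 0.546).

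Ndn (−0.45 ± 0.12) and Inpp5f (−0.39 ± 0.11) were lower too. Several of these calls ended when 1 of the 12 libraries was left out, though the values kept their sign. That of Grb10 ended in 11 fits, all but that without WT1 replicate 3 (0.17 to 0.24). Those of Mest (−0.56 to −0.40) and Ndn (−0.50 to −0.37) ended in 9 fits each. Those of Magel2 (−1.56 to −1.16) and Inpp5f (−0.47 to −0.33) ended in 7 fits each. With the replicate block 13 of 38 members passed, against 20.9% of all genes. All 9 were among them, and Plagl1 (0.21 ± 0.05) was added as higher and Peg10 (−0.29 ± 0.08), Phlda2 (−0.53 ± 0.13) and Zrsr1 (−0.19 ± 0.07) as lower. With lines as the replicates, 2 against 2, no member passed. That fit has fewer residual degrees of freedom, and the share of all genes passing in it is not given here.

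**Figure D4:**
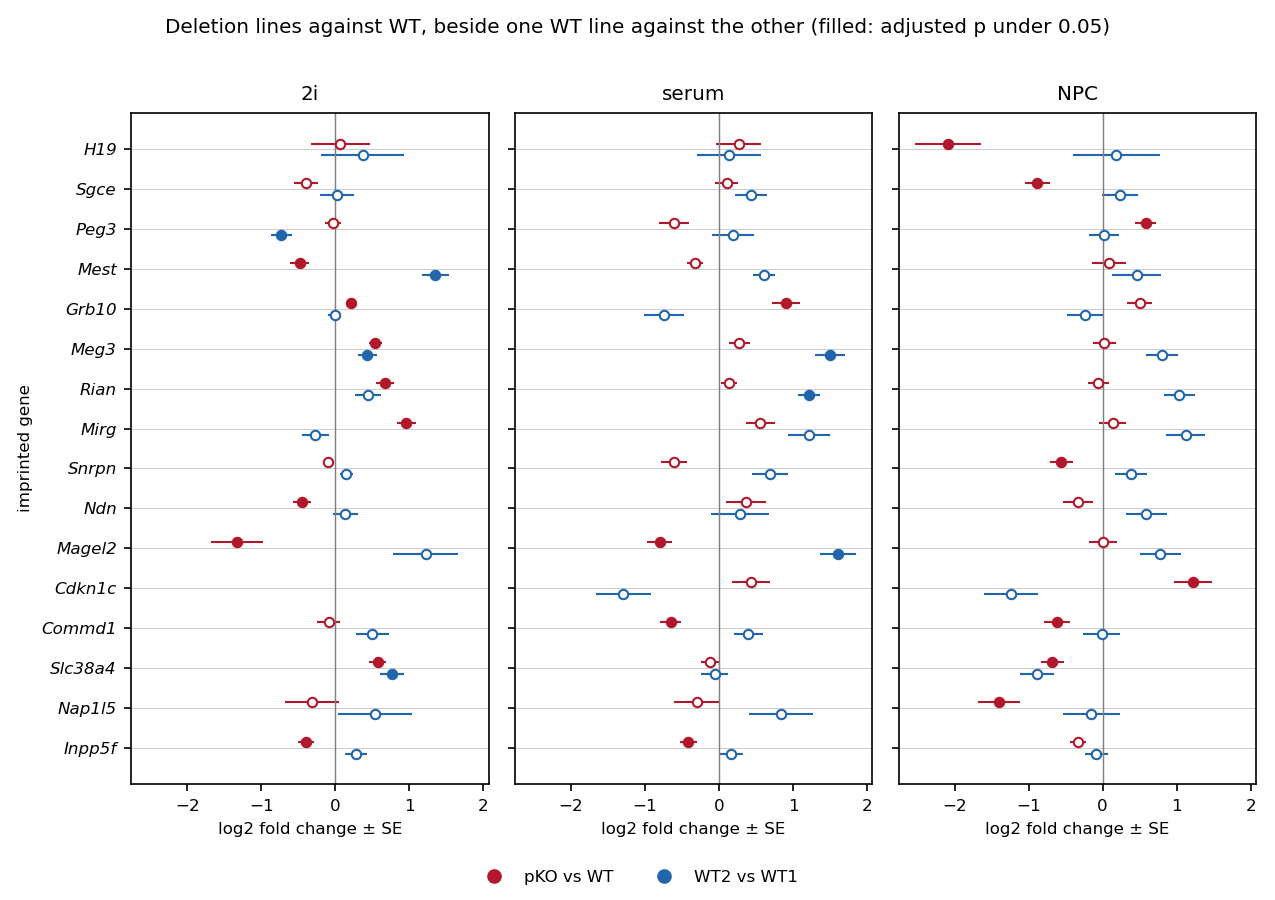
Log2 fold change with SE (x axes, same scale) of 16 imprinted genes called in pKO against WT in any state (red), beside WT2 against WT1 (blue), in 2i, serum and NPCs; filled points have an adjusted p under 0.05. The blue points of Mest in 2i and of Meg3, Rian and Magel2 in serum lie farther from 0 than the red ones, and the red points of H19 and Nap1l5 in NPCs lie farther than the blue ones.

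In serum 1 of 42 members was higher in pKO and 3 were lower (9.52%), against 5.95% of 14197 genes called (1.77% higher, 4.18% lower), and the Dlk1-Dio3 RNAs were not among them. DESeq2 called 2 higher and 6 lower, beside 1307 of all genes. Of 10 naive pluripotency markers 3 were higher, at sums of 1570 to 2460 CPM in pKO against 1320 to 1990 in WT, and their part was not tested. Grb10 had 215, 347 and 232 CPM in pKO2 and 370.4, 454 and 374 in pKO1, against 136, 187 and 83.2 in WT2 and 262, 243 and 197 in WT1. The ranges overlapped through pKO2 and WT1 (0.90 ± 0.19, adjusted p = 0.0145), and the call ended with WT1 as the only control or pKO2 as the only deletion line. Feeder markers ran at 2500 to 13400 CPM with a median of 7870 in pKO serum libraries, against 3020 to 6000 with a median of 4870 in WT. With the feeder score as a covariate Grb10, Magel2 and Commd1 were still called, and Inpp5f was not (−0.34 ± 0.11).

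Magel2 had 26.8, 19.3 and 25.0 CPM in pKO2 and 17.7, 13.8 and 20.3 in pKO1, against 47.1, 63.2 and 77.3 in WT2 and 16.3, 22.6 and 24.3 in WT1 (−0.80 ± 0.17, adjusted p = 0.0143). The pKO libraries lay below WT2 and overlapped WT1, with WT1 as the only control the difference was 0.002 (adjusted p = 0.998), and with pKO2 as the only deletion line the call ended. Commd1, a copper handling gene with a maternal bias in the brain, had 13.1, 21.7 and 22.8 CPM in pKO2 and 22.2, 19.6 and 29.7 in pKO1, against 34.9, 44.2 and 37.6 in WT2 and 27.5, 29.4 and 34.5 in WT1 (−0.66 ± 0.14, adjusted p = 0.0145). Its call ended with WT1 as the only control or pKO1 as the only deletion line. Both calls ended without WT1 replicate 3 (−0.88 to −0.72 for Magel2 and −0.74 to −0.54 for Commd1 over the 12 fits), and that of Inpp5f (−0.42 ± 0.12) in 11 of 12 fits, all but that without pKO2 replicate 3 (−0.48 to −0.31).

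As NPCs, 2 of 42 members were higher in pKO and 6 were lower (19%), against 8.05% of 14511 genes called (3.45% higher, 4.6% lower). H19 had 2.40, 2.56 and 2.04 CPM in pKO2 and 3.01, 3.11 and 0.432 in pKO1, against 5.98, 16.4 and 9.47 in WT2 and 6.70, 9.45 and 11.5 in WT1. Every pKO library lay below every WT library (−2.09 ± 0.45, adjusted p = 0.0109), and the call ended with pKO2 as the only deletion line. Igf2 beside it had 48.8, 51.7 and 45.9 in pKO2 and 61.2, 79.3 and 56.4 in pKO1, against 25.9, 26.0 and 34.3 in WT2 and 63.9, 142 and 97.6 in WT1, above WT2 and overlapping WT1, and was not past the threshold (0.11 ± 0.18). The mean log2 ratio of Igf2 over H19 in CPM was 4.39 ± 0.09 in pKO2 and 5.35 ± 1.46 in pKO1, against 1.55 ± 0.77 in WT2 and 3.41 ± 0.44 in WT1 (SD, n = 3). Feeder sums were 234 to 603 CPM in pKO NPCs against 224 to 775 in WT NPCs.

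Nap1l5, whose promoter is printed above, had 1.41, 1.76 and 2.57 CPM in pKO2 and 4.51, 2.86 and 1.47 in pKO1, against 8.10, 4.96 and 5.58 in WT2 and 5.20, 6.98 and 8.07 in WT1. Every pKO library lay below every WT library (−1.40 ± 0.28, adjusted p = 0.00801), at low counts, and the call ended with pKO1 as the only deletion line. Sgce had 56.2, 30.8 and 36.3 in pKO2 and 25.4, 35 and 23.6 in pKO1, against 55.8, 77.0 and 78.4 in WT2 and 48.9, 57.2 and 70.4 in WT1 (−0.88 ± 0.17, adjusted p = 0.00681). The overlap came from 1 pKO2 library, and the call ended with pKO2 as the only deletion line or WT1 as the only control.

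Slc38a4 had 100.0, 68.3 and 82.7 CPM in pKO2 and 49.2, 65.9 and 68.1 in pKO1, against 62.9, 91.5 and 107 in WT2 and 122, 166 and 189 in WT1 (−0.68 ± 0.16, adjusted p = 0.0175). It overlapped WT2 and lay below WT1, and the call ended with WT2 as the only control (−0.24) or pKO2 as the only deletion line. In 2i it was higher in pKO, and the difference between 2i and NPCs was not tested. Snrpn (−0.56 ± 0.16) and Commd1 (−0.62 ± 0.18) were lower as well. Leaving out 1 library ended the call of Snrpn in 9 of 12 fits (−0.68 to −0.47), of Commd1 in 8 (−0.72 to −0.54), and of Slc38a4 without pKO2 replicate 2, WT1 replicate 3 or WT2 replicate 3 (−0.78 to −0.58).

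Cdkn1c and Peg3 were the members higher in pKO NPCs. Cdkn1c had 17.7, 6.57 and 15.1 CPM in pKO2 and 9.36, 6.64 and 6.39 in pKO1, against 1.84, 3.40 and 3.29 in WT2 and 6.56, 5.60 and 7.84 in WT1 (1.22 ± 0.26, adjusted p = 0.00969). It overlapped WT1 and lay above WT2, and the call ended with WT1 as the only control or pKO1 as the only deletion line. Peg3 had 311, 326 and 205 in pKO2 and 517, 448 and 388 in pKO1, against 221, 273 and 248 in WT2 and 186, 274 and 263 in WT1 (0.58 ± 0.14, adjusted p = 0.0223). All pKO1 libraries lay above WT and pKO2 overlapped it, and the call ended with either WT line as the only control, with pKO2 as the only deletion line (0.25) and without pKO1 replicate 1, pKO2 replicate 2 or WT2 replicate 3 (0.49 to 0.66). In the same comparison 5 of 10 extraembryonic endoderm markers were higher (median 1.73), at summed levels of 75.2 to 170 CPM in pKO against 90.3 to 112 in WT, with Afp at 0 counts in all NPC libraries. Of 4 trophoblast markers tested 1 was higher, at sums of 6.56 to 21.2 CPM in pKO against 3.13 to 13.1 in WT, with Prl3d1 at 0 counts. Their part in the results of the imprinted genes was not tested. With lines as the replicates no member passed in serum or in NPCs, and the share of all genes passing in those fits is not given here.

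**Figure D5:**
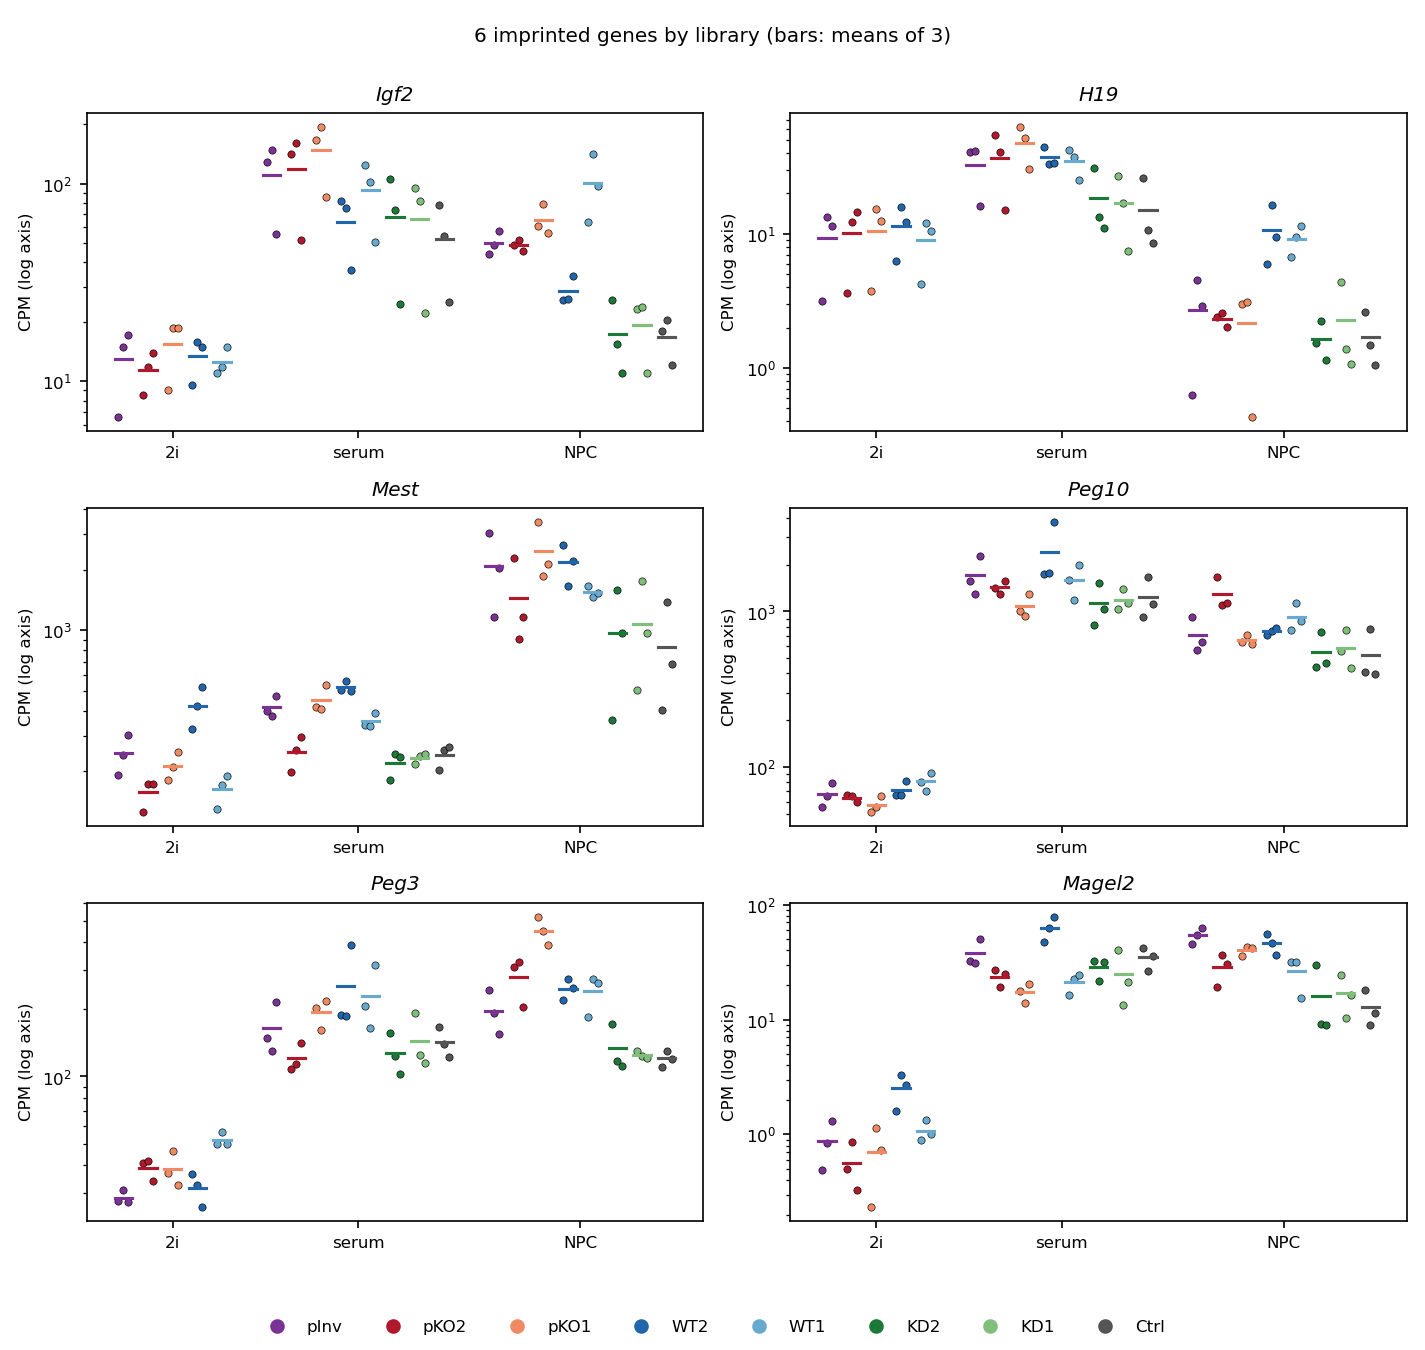
CPM (log axes) of Igf2, H19, Mest, Peg10, Peg3 and Magel2 in every library, by state and line; bars are means of 3. H19 in NPCs is at or below 4.53 CPM in pInv, pKO and perturbation libraries and at or above 5.98 CPM in WT libraries, and Igf2 in NPCs is lowest in WT2 among the genotype lines.

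Whether the effect of the deletion differed between states was tested directly. Between serum and 2i no member of 42 passed in edgeR, against 1.13% of 15679 genes (0.6% higher, 0.529% lower). In that test 11 members had an unadjusted p under 0.05 (26.2%, against 13.5% of all genes). DESeq2 called 2 members, beside 406 of all genes. Between NPCs and serum 5 of 42 passed (11.9%), against 4.02% of genes (1.97% higher, 2.05% lower). For Peg3 the within-state pKO effect was 0.58 ± 0.14 in NPCs and −0.61 ± 0.20 in serum, and the difference in the fit across states was 1.17 ± 0.23, adjusted p = 0.00254. For Peg10 it was 0.19 ± 0.14 in NPCs and −0.61 ± 0.20 in serum (0.77 ± 0.22, adjusted p = 0.0416). The other members had lower effects in NPCs. H19 had −2.09 ± 0.45 in NPCs and 0.27 ± 0.30 in serum (−2.40 ± 0.59, adjusted p = 0.0167), Sgce −0.88 ± 0.17 in NPCs and 0.10 ± 0.16 in serum (−1.02 ± 0.23, adjusted p = 0.008), and Zrsr1 −0.54 ± 0.16 in NPCs and 0.04 ± 0.13 in serum (−0.60 ± 0.17, adjusted p = 0.0406).

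Leaving out all libraries of 1 replicate number ended the call of Peg3 without number 2, of H19, Sgce and Zrsr1 without number 2 or 3, and of Peg10 without any of the 3 numbers. That of Zrsr1 also ended with no filter on low counts. The values ranged over 1.07 to 1.29 for Peg3, −2.61 to −2.20 for H19, −1.13 to −0.92 for Sgce, −0.94 to −0.26 for Zrsr1 and 0.66 to 0.97 for Peg10.

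The inverted promoter line also had more Mirg and Meg3 than WT in 2i. Of 38 members 2 were higher in pInv than in WT and none lower (5.26%), against 0.911% of genes called (0.567% higher, 0.344% lower). The comparison shares its WT libraries with that of pKO. Mirg had 9.79, 7.92 and 12.3 CPM in pInv, against 4.83, 4.76 and 6.21 in WT2 and 6.53, 5.80 and 6.57 in WT1 (0.79 ± 0.15, adjusted p = 0.0276). Meg3 had 152, 154 and 175 in pInv, against 126, 107 and 149 in WT2 and 90.0, 89.9 and 101 in WT1 (0.56 ± 0.11, adjusted p = 0.0294). For both, all pInv libraries lay above all WT libraries.

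The call of Mirg ended without WT1 replicate 2, WT2 replicate 1, WT2 replicate 2, pInv replicate 1 or pInv replicate 3 (0.62 to 0.97 over 9 fits), and that of Meg3 without WT1 replicate 2 or any 1 of the pInv libraries (0.50 to 0.62), and with WT2 as the only control (0.35). With the replicate block 8 passed, 5 higher and 3 lower, against 5.67% of all genes. Rian (0.64 ± 0.10), Ppp1r9a (0.55 ± 0.12) and Gnas (0.28 ± 0.07) were added as higher, and Slc22a18, a membrane transporter (−1.10 ± 0.23), Peg3 (−0.49 ± 0.09) and Snrpn (−0.23 ± 0.06) as lower. With the feeder score as a covariate 7 members passed, beside 637 of all genes.

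In serum and in NPCs no member differed past the threshold between pInv and WT, against 0.0563% of genes (0.00704% higher, 0.0493% lower) in serum and 0.0138% (0.0% higher, 0.0138% lower) in NPCs called by edgeR. At an unadjusted p under 0.05 there were 3 members in serum (7.14%, against 4.86% of all genes) and 7 in NPCs (16.7%, against 6.99%). DESeq2 called none in serum and 1 in NPCs, beside 44 and 54 of all genes. H19 in NPCs had 0.626, 4.53 and 2.91 CPM in pInv, below all WT libraries at 5.98 to 16.4 CPM (−1.86 ± 0.57, adjusted p = 0.568).

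Knockdown of Meteor moved no imprinted gene past the threshold. In serum none of 41 members passed in KD against Ctrl by edgeR, none had an unadjusted p under 0.05 and DESeq2 called none, and log2 fold changes ran from −0.38 to 0.45. In NPCs none of 41 passed, 2 had an unadjusted p under 0.05 and DESeq2 called none, with values from −0.87 to 0.52. Over all genes edgeR called 0.0% in either state. An unadjusted p under 0.05 was found for 138 of 13644 genes in serum and 179 of 13454 in NPCs. DESeq2 called 4 genes in serum and 2 in NPCs. The replicate numbers pair these libraries, and with a replicate block no member passed in either state. In those fits 1 of all genes passed in serum and 2 in NPCs.

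The members that moved in the edited lines can be read beside the knockdown. Meg3 in serum had 419, 259 and 299.5 CPM in KD2 and 373, 199 and 277 in KD1, against 371, 217 and 289 in Ctrl, with a difference of 0.05 ± 0.22 and a 95% interval from −0.39 to 0.49. H19 in NPCs had 1.54, 2.23 and 1.16 in KD2 and 4.40, 1.39 and 1.07 in KD1, against 2.61, 1.48 and 1.04 in Ctrl (0.18 ± 0.51, interval from −0.81 to 1.18). Grb10 in serum had 418, 239 and 228 in KD2 and 454, 314 and 300.4 in KD1, against 371, 290.2 and 273 in Ctrl (0.05 ± 0.20, interval from −0.34 to 0.44). For these 3 members the KD and Ctrl ranges overlapped. The intervals are from the fit without the replicate block, so they include the spread shared by same-numbered libraries. By replicate number, Meg3 was higher in KD2 than in Ctrl each time, but in KD1 only for number 1. Grb10 was higher in KD1 than in Ctrl each time, but in KD2 only for number 1. H19 went both ways in both lines.

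Between the knockdown lines, none of 41 members passed in KD2 against KD1 in serum (4 at an unadjusted p under 0.05, which is 9.76% against 13.7% of all genes, and none by DESeq2) or in NPCs (none at an unadjusted p under 0.05, none by DESeq2). With the replicate block, which pairs these libraries, 3 of 41 were lower in KD2 in serum, where 11.5% of all genes passed: Ube3a, the ubiquitin ligase of Angelman syndrome (−0.59 ± 0.13), Kcnq1ot1 (−0.56 ± 0.14) and Rian (−0.33 ± 0.10).

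Of the 44 members, 22 passed the main test in at least 1 of the 18 genotype, knockdown, line and interaction comparisons, and all 22 are named above. The share of all genes passing at least 1 of these 18 comparisons was not counted, so the 22 cannot be set against it. Another 20 passed in none of these, and all of them except Peg13, a non-coding RNA, changed in at least 1 of the WT state comparisons. Those comparisons called 59.0% (serum against 2i) and 66.3% (NPC against serum) of all genes, and the share called in at least 1 of them was not counted. Zim1, a zinc finger gene beside Peg3, rose by 1.98 ± 0.34 from 2i to serum and fell by 0.74 ± 0.30 in NPCs, and Usp29, a deubiquitinase gene of the same locus, fell by 1.17 ± 0.33 in NPCs. Impact, a regulator of the amino acid stress response, rose by 0.57 ± 0.11 in serum, and Airn, the silencing RNA of the Igf2r domain, by 1.82 ± 0.69. Mkrn3, a ubiquitin ligase gene, rose by 2.06 ± 0.30 in NPCs, Ube3a by 0.95 ± 0.20, Mcts2, a retrogene within H13, by 0.63 ± 0.14, and Nespas, antisense at the Gnas locus, by 0.84 ± 0.32. Slc22a18 fell by 1.14 ± 0.33. Peg13 had 1.43 to 12.3 (median 5.41) CPM in WT NPCs, 3.54 to 7.07 (median 4.57) in serum and 0.895 to 5.51 (median 2.99) in 2i, with overlapping ranges. The remaining 2, Rtl1 and Kcnq1, reached at most 0.528 CPM (Rtl1) and 0.481 CPM (Kcnq1) in any library.

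Factors that set or keep imprints were read beside the set. Of 16 tested, 2 were higher and 1 lower in pKO in 2i, 2 higher in serum, and 1 higher and 1 lower in NPCs, against 9.06%, 5.95% and 8.05% of all genes called in the same tests. Dnmt3l, the cofactor of germline DNA methylation, was lower in pKO in 2i (−1.33 ± 0.14) and higher in serum (0.46 ± 0.10) and NPCs (0.92 ± 0.25). It was also lower in pInv than in WT in 2i (−1.181 ± 0.175) and in WT2 than in WT1 in serum (−1.41 ± 0.15). In pKO2 it was higher than in pKO1 in serum (0.976 ± 0.145) and in NPCs (3.29 ± 0.38). Uhrf1 (0.28 ± 0.07) and Zfp445 (0.449 ± 0.125) were higher in pKO in 2i, and Tet2 (0.64 ± 0.13) in serum. Dppa3, which protects methylation in the early embryo, was higher in WT2 in 2i (2.28 ± 0.26) and lower in pKO NPCs (−1.46 ± 0.29). Zfp57 was higher in pKO2 than in pKO1 in NPCs, the comparison in which naive pluripotency markers were higher (1.29 ± 0.19).

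Between WT states 6 of 16 factors rose and 7 fell in serum compared with 2i, against 59.0% of all genes called, led by Dnmt3b, a de novo methyltransferase (3.09 ± 0.13), Tet2, which oxidises methylcytosine (−2.37 ± 0.12), and Dnmt3l (1.65 ± 0.15). In NPCs compared with serum 5 rose and 7 fell, against 66.3% of all genes, led by Dnmt3l (−3.60 ± 0.16), Tet3 (2.18 ± 0.15) and Trim28, the corepressor that ZFP57 recruits (−1.34 ± 0.10). A further list of 32 imprinted genes outside the set, of which 31 had a row, gave 10 rises and 11 falls of 26 tested in serum compared with 2i, against the same 59.0% (29.5% each way), led by Cobl (−3.47 ± 0.16), Ago2 (−1.17 ± 0.09) and Pon2 (2.59 ± 0.20). In pKO against WT it gave 1 rise and 1 fall of 22 in 2i, 1 fall of 22 in serum, and 2 rises and 1 fall of 23 in NPCs, beside the 9.06%, 5.95% and 8.05% of all genes. In NPCs Sfmbt2 (0.98 ± 0.20), Copg2, the neighbour of Mest (−0.58 ± 0.12), and Pon2 (0.81 ± 0.19) passed.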

How the data were processed

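The authors deposited 1 table per library, 63 in all, with expected counts and TPM from RSEM on build mm9, per the submitters' processing notes. The aligner, the RSEM version and the strand setting are not given in the sources used here. Libraries were made from polyadenylated RNA with the Lexogen SENSE mRNA-Seq kit, per the labels' protocols. The depths of 7566629 to 18553323 counts limit the precision of low members. Expected counts were rounded for the count models, since 4.65% to 7.86% of them in a library had a fractional part. Of 24990 rows 23822 were named by gene id, 1139 by transcript accession and 1 by symbol, and 28 had no name. Copies among the libraries were looked for and not found: the lowest chi-square per row was 5.28 over the 63 pairs within groups, with rows of at least 10 summed counts.

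Differential expression was tested with edgeR 4.0.16 in R 4.3.3 (TMM, filterByExpr, quasi-likelihood F test, Benjamini-Hochberg adjustment over all genes, threshold 0.05). The SE was taken as |log2 fold change| over the root of the F statistic, and intervals are the value ± the normal 95% range of that SE. Each genotype comparison used the 15 libraries of a state with 1 mean per line. The pKO value gives pKO1 and pKO2 equal weight, and sets their mean against the equally weighted WT1 and WT2. Knockdown used 9 libraries per state, WT states 18 libraries and interactions 45. The procedure was also run on simulated counts drawn independently for each library, with no line differences and no spread shared by same-numbered libraries. That run therefore cannot show how the tests behave where lines differ or replicates share spread. Python 3.11.15 with pandas 2.3.3, numpy 2.4.6 and matplotlib 3.10.9 did the rest.

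Alternatives were DESeq2 1.42.0, RLE scaling, no filter on low counts, a replicate block and a feeder score as covariate. Others were single lines, lines as replicates, and leaving out each library or, for the interactions, all libraries of 1 replicate number. Replicate numbers are taken to pair libraries where every pair of same-numbered libraries correlated over 0.1 in its deviations from the line means. This was so in 2i (30 of 30 pairs, lowest 0.241), knockdown serum (9 of 9, lowest 0.304) and knockdown NPCs (9 of 9, lowest 0.251).

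The members and lists were chosen with earlier results of these data known. Named members are those past 0.05, at most 8 per direction by adjusted p for each comparison, and those past it in a genotype, knockdown or line comparison are described by library. From the lists of imprint factors and further imprinted genes, members past 0.05 were named by smallest p in the WT state comparisons. In the other comparisons a selection of those past 0.05 was named.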

Additional observations from a re-analysis of the deposited data

Results flagged for a closer look

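The effect of the deletion, pKO against WT, differed between NPCs and serum at 5 imprinted genes in the edgeR interaction test, and these are the results flagged. The differences on the log2 scale, NPC minus serum, were −2.40 for H19 (adjusted p = 0.0167), −1.02 for Sgce (adjusted p = 0.008), −0.60 for Zrsr1 (adjusted p = 0.0406), 1.17 for Peg3 (adjusted p = 0.00254) and 0.77 for Peg10 (adjusted p = 0.0416). For Peg10 and Zrsr1 neither state alone passed the test. Feeder sums were 234 to 603 CPM in pKO NPCs and 224 to 775 in WT NPCs, against 2500 to 13400 in pKO serum and 3020 to 6000 in WT serum libraries, and their part in these differences was not tested.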

How the results depend on the processing

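For the 88 named member results, 1178 of 1387 alternative values kept their direction and side of the threshold, 206 lost the call and 3 turned: Mest in pKO against WT in 2i (0.19) and Magel2 in serum (0.002) with WT1 as the only control, and Plagl1 in NPC against serum with WT1 alone (0.11). The cause was not tested. Of 289 alternative counts of called members 224 stayed within 1.5 times the main count. With WT1 as the only control, 4 members passed in 2i and 4 in NPCs for pKO against WT (main 9 and 8), and 9 in 2i, 2 in serum and 1 in NPCs for pInv (main 2, 0 and 0). With WT2 as the only control 8 passed for pKO in serum (main 4). With pKO1 as the only deletion line 3 passed in 2i and 5 in NPCs, and with pKO2 3 in NPCs. The counts over all genes in these single-line fits are not given here, so the member counts cannot be set against them. With lines as replicates 0 passed in each state, a fit with fewer residual degrees of freedom whose count over all genes is not given here. DESeq2 called 8 for pKO in serum, 7 for pInv in 2i and 1 in NPCs (1307, 398 and 54 of all genes). For WT2 against WT1 it called 5 in serum and 5 in NPCs (245 and 163 of all genes). It called 3 for pKO2 against pKO1 in NPCs (817 of all genes) and 2 for the interaction of serum with 2i (406). A feeder covariate gave 7 for pInv in 2i and 2 for pKO2 against pKO1 in 2i (637 and 314 of all genes). No filter on low counts gave 2 for WT2 against WT1 in NPCs and 2 for pKO2 against pKO1 in NPCs.

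A replicate block raised the calls over all genes too. It gave 18 members for pKO in serum, 9 higher and 9 lower, with Mirg (0.54) and Dlk1 (0.58) among the higher, while 2887 of all genes were called (main 845). It gave 8 for pInv in 2i (790 of all genes, main 127) and 1 in serum (27, main 8), and 14, 8 and 3 for WT2 against WT1 in 2i, serum and NPCs (4138, 351 and 50 of all genes, main 2506, 75 and 15). For pKO2 against pKO1 it gave 4 in each state (585, 691 and 560 of all genes in 2i, serum and NPCs, main 80, 28 and 425), for KD2 against KD1 in serum 3 (1569, main 0), and for the interactions of serum with 2i and of NPC with serum 7 and 11 (826 and 1600, main 177 and 630). For NPC against serum in Ctrl the block was set within each state, with replicate 1 as the reference. Its values are therefore the step at replicate 1 and not a mean over the replicates, so they cannot show what blocking changes. There 28 members passed (main 24), with Meg3 (0.57 ± 0.12, adjusted p = 0.000575), Calcr, Snrpn, Peg3, Nnat and Plagl1 beyond the main calls. In that fit Phlda2 had −0.41 (main −1.24) and Mest 0.86 (main 1.77). Same-numbered libraries of the serum genotype lines correlated over 0.1 in 29 of 30 pairs (lowest 0.097), those of NPCs in 17 of 30 (lowest −0.346), those across WT states in 19 of 45, and those across serum and NPCs of the knockdown series in 42 of 45 (lowest 0.025), so the numbers were not taken to pair them.

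Leaving out 1 library gave 4 to 8 called members for pKO against WT in 2i. It gave 1 to 10 for pKO in serum and 4 to 11 in NPCs, and 0 to 3 for pInv in 2i. For WT2 against WT1 it gave 6 to 9, 2 to 3 and 0 to 2 in 2i, serum and NPCs. For pKO2 against pKO1 it gave 0 to 1 in serum and 0 to 2 in NPCs. For serum against 2i it gave 28 to 30, and for NPC against serum 28 to 30 in WT and 20 to 24 in Ctrl. The interaction of NPC with serum was refitted without all libraries of 1 replicate number, which gave 0 to 10 over 3 fits. Where 1 library is left out of a line, that line's spread is assumed to be like the others'. Members of a few CPM, such as Magel2 in 2i and Nap1l5 and H19 in NPCs, rest on few counts.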
